A study of Mus musculus with 13 samples.

Results

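The proteasome genes followed here are the 39 rows whose single gene symbol begins with Psma, Psmb, Psmc, Psmd, Psme, Psmf or Psmg and a digit, without the immunoproteasome subunits Psmb8, Psmb9 and Psmb10. They were taken from 16661 tested rows, which carry 14807 distinct single symbols, and each had a single row. Of the 39, 37 encode a subunit, activator, inhibitor or assembly chaperone of the proteasome, namely 5 of the alpha ring, 6 of the beta ring, 6 ATPases and 2 other proteins of the base, 8 of the lid, 6 assembly chaperones, 3 activators and 1 inhibitor. The other two, Psmc3ip and Psme3ip1, share only the prefix: Psmc3ip is a cofactor of meiotic recombination and Psme3ip1 a partner protein of PSME3. Psma4, Psma5, Psma8, Psmb3, Psmb5, Psmd1, Psmg4 and Psme2 had no row of their own and were not analysed here.

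RNA was measured on 13 mouse exon arrays covering 7 lines. Induced pluripotent stem (iPS) clones 1, 2, 5 and 6 had 2 arrays each (8 in all), embryonic stem (ES) cells of the mucopolysaccharidosis VII model (MPSVII ES) had 2, the ES line B6 Blu had 1, and embryonic fibroblasts (MEF) had 2. B6 Blu ES is of strain C57BL/6NTac and every other line of strain C57Bl/6. The clones were made from MEF with a lentivirus named OSK, for Oct4, Sox2 and Klf4, and each is the progeny of 1 picked colony grown on feeder MEF. For the clones and MEF the titles name the MPSVII model, which lacks beta-glucuronidase, while the source and growth fields name wildtype embryos, so the genotype of these lines is not settled by the labels. No label states whether the arrays of a line came from separate cultures, so p-values measure the spread between arrays, which may be technical.

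The proteasome degrades proteins tagged with ubiquitin. Its core particle is a stack of alpha and beta rings with the proteolytic sites inside the beta rings, and a regulatory particle of base and lid binds, unfolds and deubiquitinates the substrate before it enters. Dedicated chaperones assemble both particles, alternative activators can cap the core in place of the regulatory particle, and the transcription factor NFE2L1 raises subunit genes together when proteasome function is short. Within a particle the subunits stand in fixed proportion. In human ES cells high proteasome activity has been tied to the lid subunit PSMD11.

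Values are log2 signal, and differences are in log2 units with limma's standard error after ±. A gene counts as called where limma's p, after Benjamini-Hochberg adjustment over all 16661 rows, lay under 0.05. The 10 pluripotency markers were called higher in the clones than in MEF and the 11 fibroblast markers measured lower. The 11 macrophage markers measured were also called lower: their summed linear signal was 219 to 352 in the clones, 230 to 246 in MPSVII ES and 201 on the B6 Blu ES array, against 9556 and 11099 in MEF, with no marker of the list below 5.70 on either MEF array. Fibroblast markers summed to 403 to 1241 in the clones, 424 to 567 in MPSVII ES and 2294 on the B6 Blu ES array, against 11434 and 11845 in MEF. The part of these other cells in the differences from MEF below was not tested, and fewer cells of a type cannot be told apart from less RNA per cell. The interquartile range of an array, over all tested rows, ran from 1.70 (clone 2, replicate 2) to 2.83 (MEF, replicate 1).

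On deposited values most proteasome genes were not called between the clones and MEF. Of the 37, 2 were called higher (Psmg1 and Psme4) and 1 lower (Psmd8), which is 8.11%, and of all 39 genes 5 were called, or 12.8%. Over all rows tested 34.8% were called, 7.78% higher and 27% lower. The median difference of the 37 genes was -0.03 beside -0.09 over all rows, the SD between genes was 0.49 beside 1.02 between all rows, and 30 of the 37 lay within 0.5 of 0, as did 60.3% of all rows. All rows are dimmer than these genes, with array medians of 3.97 to 4.45 against 7.70 to 8.61 over the 37. With rows of mean under 5 left out, the median difference was -0.02 over the 33 of the 39 genes kept. Over all rows kept it was -0.335. Before adjustment, 9 of the 37 had p under 0.05, as had at least the 34.8% of all rows called after it. The exact share of all rows under this unadjusted threshold was not counted, here or in the comparisons below. The arrays of clones and MEF did not overlap for 4 of the 37 genes, beside 33.7% of all rows. Between MPSVII ES and MEF this held for 21 of the 37, beside 60.3% of all rows. Between B6 Blu ES and MEF it held for 32, beside 80.1%.

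**Figure D1:**
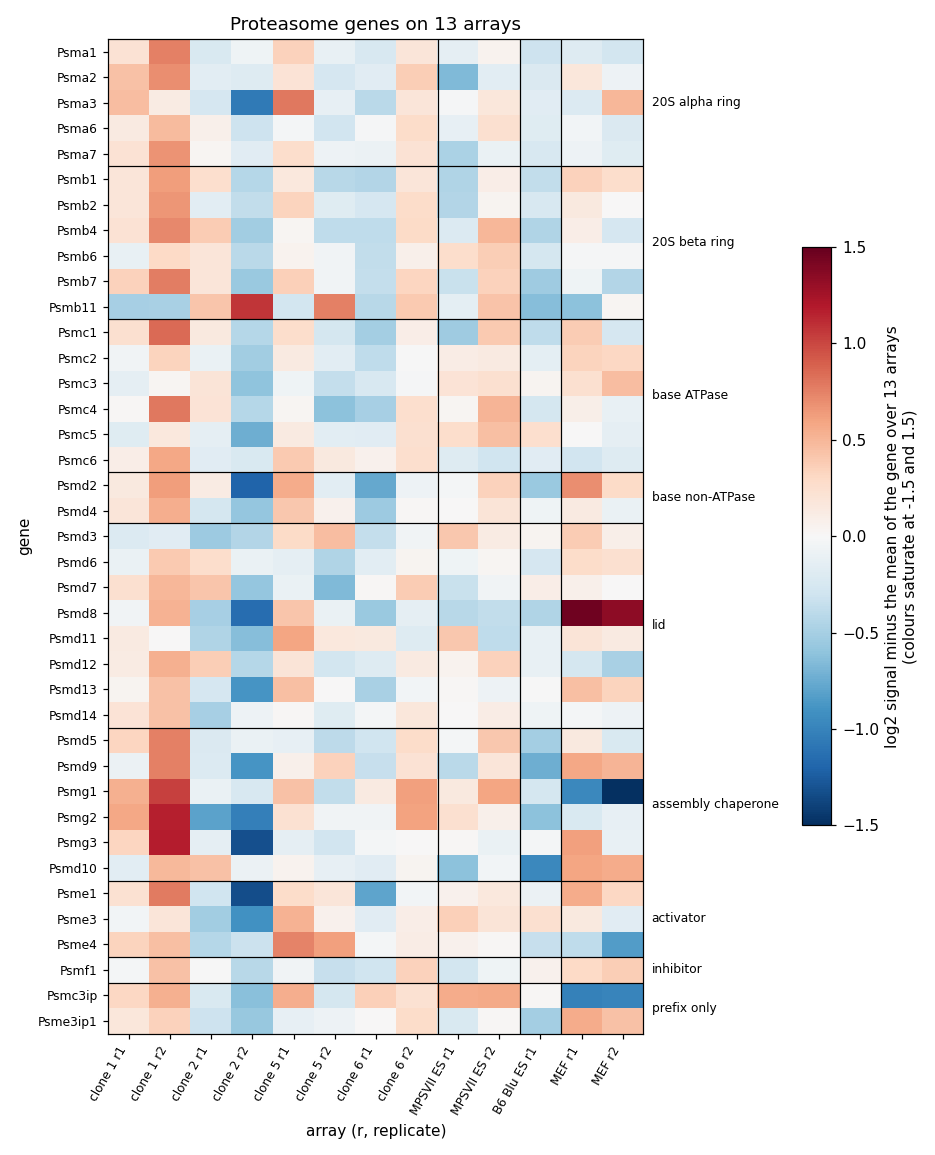
Colour shows, for each of the 39 genes (rows, grouped by role) and each of the 13 arrays (columns), the log2 signal minus that gene's mean over the 13 arrays. Psmg1 and Psmc3ip are blue and Psmd8 dark red on both MEF arrays, while the array of clone 2, replicate 2 is blue for most genes.

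The 3 proteasome genes called between clones and MEF are shown first, with the 250 bases before their annotated start, since these windows show whether they share motifs known from proteasome promoters. The sequences are from RefSeq on GRCm38.p6, 5′ to 3′ on the strand of the gene, and capitals mark an ETS site (CCGGAAG).
Psmg1, chr16:95990961-95991210, minus strand: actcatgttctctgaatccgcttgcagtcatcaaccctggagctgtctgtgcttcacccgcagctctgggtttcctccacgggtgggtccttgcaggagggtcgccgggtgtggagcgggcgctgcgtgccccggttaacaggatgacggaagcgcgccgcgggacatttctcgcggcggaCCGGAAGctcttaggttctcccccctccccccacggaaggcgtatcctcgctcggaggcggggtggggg
Psme4, chr11:30771525-30771774, plus strand: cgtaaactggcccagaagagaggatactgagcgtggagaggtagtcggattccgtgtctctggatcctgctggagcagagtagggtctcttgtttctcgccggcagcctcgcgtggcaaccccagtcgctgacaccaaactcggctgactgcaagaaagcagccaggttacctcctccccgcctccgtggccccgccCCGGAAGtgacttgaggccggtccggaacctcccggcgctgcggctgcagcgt
Psmd8, chr7:29180674-29180923, minus strand: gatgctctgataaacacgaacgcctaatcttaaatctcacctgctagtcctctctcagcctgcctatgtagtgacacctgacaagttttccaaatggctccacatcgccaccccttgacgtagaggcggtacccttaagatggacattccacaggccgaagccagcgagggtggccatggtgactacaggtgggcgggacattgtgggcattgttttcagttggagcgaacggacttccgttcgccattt
The ETS match begins 69 bases upstream of the start of Psmg1 and 53 bases upstream of that of Psme4. Psmd8 matched none of the 4 motifs searched on both strands, which were the ETS site, the antioxidant response element TGACNNNGC bound by NFE2L1 and its relatives, the CCAAT box and the nuclear respiratory factor 1 site. Of the 30 proteasome genes with a window, 11 held the ETS site (36.7%, against 6.91% of all 32851 windows), 5 the nuclear respiratory factor 1 site (16.7% against 4.98%), 12 the CCAAT box (40.0% against 33.8%) and 4 the antioxidant response element (13.3% against 10.2%). Each proteasome gene entered with a single window, while the windows of all genes were counted without removing repeats of a gene, so the shares differ in unit. A match is a string of letters and not a measured binding site. The ETS site was held by both genes called higher and also by genes that were not called, such as Psmc1, Psmd2 and Psmd11.

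Psmg1 encodes a chaperone that, paired with the product of Psmg2, builds the alpha ring. The log2 signal of Psmg1 was 9.34 and 9.83 in clone 1, 8.70 and 8.56 in clone 2, 9.24 and 8.43 in clone 5 and 8.94 and 9.42 in clone 6, with 8.95 and 9.40 in MPSVII ES, 8.54 on the B6 Blu ES array, and 7.84 and 7.26 in MEF. Every clone and ES array lay above both MEF arrays. The clones exceeded MEF by 1.51 ± 0.26 (adjusted p = 0.000764) and MPSVII ES exceeded MEF by 1.62 ± 0.32 (adjusted p = 0.00325). On the single B6 Blu ES array the difference from MEF was 0.99 ± 0.40 and was not called (adjusted p = 0.11). It was called under all 4 other scalings of the arrays tried, which were quantile normalization (1.78), median centring (1.20), loess (1.15) and centring each array on the proteasome genes (1.74), with adjusted p from 0.00132 to 0.0339.

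Psme4 encodes a large nuclear activator that caps the core and is best known for the degradation of acetylated histones in male germ cells. Psme4 had log2 signals of 8.30 and 8.43 in clone 1, 7.55 and 7.65 in clone 2, 8.72 and 8.58 in clone 5 and 7.94 and 8.08 in clone 6, with 8.04 and 7.99 in MPSVII ES, 7.62 on the B6 Blu ES array, and 7.59 and 7.14 in MEF. Replicate 1 of clone 2 lay just below the higher MEF array, so the clones and MEF overlapped, whereas clones 1, 5 and 6 lay wholly above MEF. The difference between clones and MEF was 0.79 ± 0.15 (adjusted p = 0.00186) and that between MPSVII ES and MEF 0.65 ± 0.19 (adjusted p = 0.0302).

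Psmd8 encodes a lid subunit, whose yeast counterpart is the last to join and completes the lid. Array values of Psmd8 were 7.74 and 8.33 in clone 1, 7.30 and 6.65 in clone 2, 8.21 and 7.70 in clone 5 and 7.24 and 7.66 in clone 6, with 7.38 and 7.43 in MPSVII ES, 7.35 on the B6 Blu ES array, and 9.26 and 9.14 in MEF. Both MEF arrays stood above all 11 arrays of the other lines. The gene was lower in the clones by -1.60 ± 0.23 (adjusted p = 0.000227), lower in MPSVII ES by -1.80 ± 0.29 (adjusted p = 0.000784) and lower on the B6 Blu ES array by -1.85 ± 0.35 (adjusted p = 0.00354). The 3 comparisons share the MEF arrays. With the 7 line means as samples, Psmg1 kept its call between clones and MEF (adjusted p = 0.0468), while Psme4 (adjusted p = 0.271) and Psmd8 (adjusted p = 0.0603) lost theirs.

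**Figure D2:**
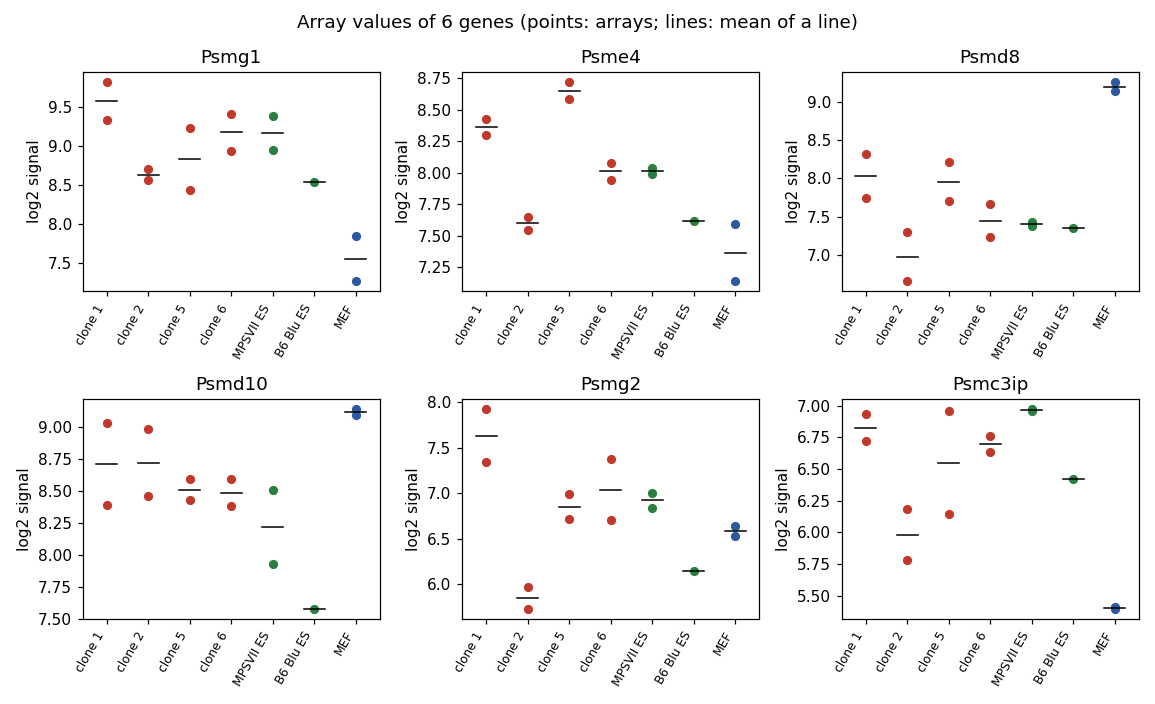
Log2 signal of 6 genes on each array (points) with the mean of each line (bars), for clones 1, 2, 5 and 6, MPSVII ES, B6 Blu ES and MEF from left to right. MEF stands apart below the other lines for Psmg1 and Psmc3ip and above them for Psmd8, and clone 2 is the lowest line for Psmg2.

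The alpha ring forms the outer gate of the core, and 0 of its 5 genes were called on deposited values in any of the 5 comparisons made here. Psma1 ranged over 9.67 to 10.66 (median 9.96) in the clones, with 9.77 and 9.95 in MPSVII ES, 9.59 on the B6 Blu ES array, and 9.71 and 9.62 in MEF. Psma2 ranged over 9.63 to 10.58 (median 9.91) in the clones, with 9.22 and 9.73 in MPSVII ES, 9.67 on the B6 Blu ES array, and 10.06 and 9.81 in MEF. Psma6 ranged over 10.81 to 11.60 (median 11.16) in the clones, with 11.00 and 11.36 in MPSVII ES, 10.94 on the B6 Blu ES array, and 11.08 and 10.91 in MEF. The clone arrays of Psma2 and Psma6 spanned the MEF arrays, while replicate 2 of MEF lay below every clone array for Psma1. Psma7 ranged over 10.43 to 11.27 (median 10.72) in the clones, with 10.12 and 10.50 in MPSVII ES, 10.36 on the B6 Blu ES array, and 10.52 and 10.42 in MEF. Psma3 ranged over 2.88 to 4.73 (median 3.94) in the clones, with 3.92 and 4.11 in MPSVII ES, 3.77 on the B6 Blu ES array, and 3.74 and 4.43 in MEF. The row of Psma3 is dim, with a mean under 5. Differences between clones and MEF in the alpha ring ran from -0.18 (Psma3) to 0.34 (Psma1), and none passed the test on deposited values (adjusted p from 0.213 for Psma1 to 0.844 for Psma2). Psma1, Psma6 and Psma7 were called higher in the clones after quantile normalization, median centring and centring on the proteasome genes (0.43 to 0.73, adjusted p from 0.00281 to 0.0418), but not after loess (adjusted p from 0.252 to 0.992).

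The beta ring carries the proteolytic sites, of which those of PSMB6 (cleavage after acidic residues) and PSMB7 (cleavage after basic residues) had a row. Psmb6 ranged over 9.70 to 10.40 (median 10.11) in the clones, with 10.36 and 10.47 in MPSVII ES, 9.83 on the B6 Blu ES array, and 10.09 and 10.09 in MEF. Psmb7 ranged over 9.26 to 10.59 (median 10.07) in the clones, with 9.48 and 10.16 in MPSVII ES, 9.29 on the B6 Blu ES array, and 9.76 and 9.37 in MEF. Neither passed the test between clones and MEF on deposited values, at -0.03 ± 0.19 (adjusted p = 0.939, 95% interval -0.45 to 0.40) for Psmb6 and 0.38 ± 0.27 (adjusted p = 0.337, 95% interval -0.22 to 0.98) for Psmb7. Psmb7 was, however, called higher in the clones after quantile normalization (0.75, adjusted p = 0.0166), median centring (0.65, adjusted p = 0.0472) and centring on the proteasome genes (0.77, adjusted p = 0.0108), and Psmb6 in MPSVII ES after quantile normalization (0.74, adjusted p = 0.00653). Psmb1, Psmb2 and Psmb4 encode beta subunits without a proteolytic site. Psmb1 ranged over 9.01 to 10.08 (median 9.62) in the clones, with 9.00 and 9.55 in MPSVII ES, 9.09 on the B6 Blu ES array, and 9.80 and 9.72 in MEF. Psmb2 ranged over 9.34 to 10.37 (median 9.72) in the clones, with 9.27 and 9.75 in MPSVII ES, 9.47 on the B6 Blu ES array, and 9.86 and 9.71 in MEF. Psmb4 ranged over 10.11 to 11.35 (median 10.76) in the clones, with 10.43 and 11.14 in MPSVII ES, 10.18 on the B6 Blu ES array, and 10.73 and 10.38 in MEF. Their clone arrays also overlapped MEF, with differences of -0.29, -0.01 and 0.12. Psmb11 encodes the catalytic subunit restricted to the thymic cortex. Psmb11 ranged over 2.85 to 4.43 (median 3.41) in the clones, with 3.21 and 3.77 in MPSVII ES, 2.72 on the B6 Blu ES array, and 2.74 and 3.37 in MEF. This row is dim in every line, and its difference between clones and MEF was 0.41 ± 0.32 (adjusted p = 0.377).

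The base ATPases form a ring that unfolds the substrate and opens the gate of the core. None of the 6 was called between clones and MEF on deposited values, and 3 had an unadjusted p under 0.05, as had at least 34.8% of all rows. Psmc3 ranged over 7.70 to 8.50 (median 8.20) in the clones, with 8.51 and 8.54 in MPSVII ES, 8.34 on the B6 Blu ES array, and 8.54 and 8.76 in MEF. All 8 clone arrays lay below both MEF arrays for Psmc3, a difference of -0.50 ± 0.20 (adjusted p = 0.0818). Of all rows, 33.7% had no overlap between clones and MEF. Psmc2 ranged over 7.76 to 8.61 (median 8.21) in the clones, with 8.39 and 8.41 in MPSVII ES, 8.14 on the B6 Blu ES array, and 8.62 and 8.60 in MEF. Psmc6 ranged over 8.74 to 9.56 (median 9.09) in the clones, with 8.78 and 8.67 in MPSVII ES, 8.80 on the B6 Blu ES array, and 8.68 and 8.77 in MEF. The difference was -0.42 ± 0.18 (adjusted p = 0.0997) for Psmc2 and 0.39 ± 0.16 (adjusted p = 0.091) for Psmc6, so ATPases of the same ring had differences of opposite sign that did not pass the test on deposited values. Psmc2 and Psmc3 were called lower after loess (-0.39 and -0.47, adjusted p = 0.0153 and 0.0206), and Psmc6 was called higher after quantile normalization, median centring and centring on the proteasome genes (0.91, 0.65 and 0.78, adjusted p from 0.000487 to 0.00985). Psmc1 ranged over 6.55 to 7.90 (median 7.18) in the clones, with 6.52 and 7.45 in MPSVII ES, 6.67 on the B6 Blu ES array, and 7.44 and 6.80 in MEF. Psmc4 ranged over 6.94 to 8.35 (median 7.58) in the clones, with 7.59 and 8.07 in MPSVII ES, 7.30 on the B6 Blu ES array, and 7.65 and 7.45 in MEF. Psmc5 ranged over 9.15 to 10.12 (median 9.74) in the clones, with 10.15 and 10.34 in MPSVII ES, 10.13 on the B6 Blu ES array, and 9.89 and 9.75 in MEF. Differences between clones and MEF for Psmc1, Psmc4 and Psmc5 lay between -0.04 and -0.02, and Psmc4 was called higher after quantile normalization (0.61, adjusted p = 0.025).

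Psmd2, the scaffold of the base that receives ubiquitin shuttle proteins, and Psmd4, a ubiquitin receptor, are the other base genes with a row. Psmd2 ranged over 5.97 to 7.79 (median 7.19) in the clones, with 7.14 and 7.52 in MPSVII ES, 6.61 on the B6 Blu ES array, and 7.87 and 7.46 in MEF. Psmd4 ranged over 6.91 to 8.04 (median 7.53) in the clones, with 7.50 and 7.68 in MPSVII ES, 7.43 on the B6 Blu ES array, and 7.62 and 7.39 in MEF. Between clones and MEF, Psmd2 differed by -0.59 ± 0.33 (95% interval -1.33 to 0.15) and Psmd4 by -0.04 ± 0.19 (95% interval -0.47 to 0.39). Neither was called (adjusted p = 0.219 for Psmd2 and adjusted p = 0.914 for Psmd4), and their arrays overlapped. Psmd4 was called higher after quantile normalization (0.60, adjusted p = 0.00176).

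In the lid, Psmd8 was 1 of 8 genes called. Psmd14 encodes the deubiquitinase that removes ubiquitin chains and Psmd7 its partner. Psmd14 ranged over 9.65 to 10.59 (median 10.15) in the clones, with 10.16 and 10.26 in MPSVII ES, 10.09 on the B6 Blu ES array, and 10.12 and 10.08 in MEF. Psmd7 ranged over 8.02 to 9.18 (median 8.81) in the clones, with 8.34 and 8.62 in MPSVII ES, 8.78 on the B6 Blu ES array, and 8.75 and 8.69 in MEF. Clones differed from MEF by 0.06 ± 0.16 (adjusted p = 0.835) for Psmd14 and by -0.01 ± 0.25 (adjusted p = 0.977) for Psmd7, with overlapping arrays, and Psmd7 was called higher after quantile normalization (0.52, adjusted p = 0.0189). Psmd11, the subunit tied to high proteasome activity in human ES cells, clamps the lid to the core. Psmd11 gave 7.49 and 7.35 in clone 1, 6.90 and 6.72 in clone 2, 7.95 and 7.51 in clone 5 and 7.50 and 7.16 in clone 6, with 7.75 and 6.97 in MPSVII ES, 7.24 on the B6 Blu ES array, and 7.54 and 7.49 in MEF. The MEF arrays lay within the range of the clones and of MPSVII ES. The difference of Psmd11 was -0.20 ± 0.21 between clones and MEF (adjusted p = 0.545, 95% interval -0.66 to 0.27) and -0.16 ± 0.27 between MPSVII ES and MEF (adjusted p = 0.763, 95% interval -0.75 to 0.43). Its sign turned under quantile normalization, median centring and loess in both comparisons, without a call.

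Psmd3, Psmd6, Psmd12 and Psmd13 encode scaffold subunits of the lid. Psmd3 ranged over 4.08 to 5.09 (median 4.44) in the clones, with 5.03 and 4.75 in MPSVII ES, 4.67 on the B6 Blu ES array, and 5.01 and 4.71 in MEF. Psmd13 ranged over 5.97 to 7.30 (median 6.83) in the clones, with 6.86 and 6.77 in MPSVII ES, 6.85 on the B6 Blu ES array, and 7.30 and 7.18 in MEF. Both had an unadjusted p under 0.05 between clones and MEF, with differences of -0.36 ± 0.16 (adjusted p = 0.105) for Psmd3, whose row has a mean under 5, and -0.48 ± 0.21 (adjusted p = 0.105) for Psmd13. Psmd6 ranged over 9.35 to 10.19 (median 9.69) in the clones, with 9.74 and 9.83 in MPSVII ES, 9.54 on the B6 Blu ES array, and 10.07 and 10.04 in MEF. Psmd12 ranged over 8.74 to 9.69 (median 9.29) in the clones, with 9.22 and 9.51 in MPSVII ES, 9.04 on the B6 Blu ES array, and 8.90 and 8.67 in MEF. The differences of -0.29 for Psmd6 and 0.43 for Psmd12 did not pass the test on deposited values. Psmd6 was called lower after loess (-0.38, adjusted p = 0.0213), and Psmd12 higher after quantile normalization (0.94, adjusted p = 0.000393), median centring (0.70, adjusted p = 0.0126) and centring on the proteasome genes (0.82, adjusted p = 0.00449).

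Among the assembly chaperones, Psmg1 was called between clones and MEF on deposited values. Its partner Psmg2 differed by 0.26 ± 0.21 (adjusted p = 0.408) on those values and was called higher in the clones under the 4 other scalings (0.92 after quantile normalization, 0.52 after median centring, 0.57 after loess and 0.64 centred on the proteasome genes, adjusted p from 0.000796 to 0.048). Array values of Psmg2 are given with the differences among clones. Psmg3 ranged over 2.98 to 5.47 (median 4.21) in the clones, with 4.31 and 4.19 in MPSVII ES, 4.26 on the B6 Blu ES array, and 4.91 and 4.18 in MEF. Psmg3, which acts after that pair with a partner not measured here, had a mean under 5 and differed from MEF in the clones by -0.30 ± 0.31 (adjusted p = 0.528). Psmd5, Psmd9 and Psmd10 encode chaperones that bind the ATPases of the base before it meets the core. Psmd5 ranged over 6.43 to 7.59 (median 6.72) in the clones, with 6.80 and 7.23 in MPSVII ES, 6.31 on the B6 Blu ES array, and 6.98 and 6.59 in MEF. Psmd9 ranged over 3.99 to 5.63 (median 4.87) in the clones, with 4.47 and 5.06 in MPSVII ES, 4.14 on the B6 Blu ES array, and 5.45 and 5.38 in MEF. Their differences between clones and MEF were 0.07 ± 0.21 (adjusted p = 0.844) for Psmd5 and -0.56 ± 0.27 (adjusted p = 0.142) for Psmd9, and the row of Psmd9 has a mean under 5. Psmd5 was called higher after quantile normalization (0.74, adjusted p = 0.00461).

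Psmd10, also known as gankyrin, binds the retinoblastoma protein as well as the base. For Psmd10 the values were 8.39 and 9.03 in clone 1, 8.98 and 8.46 in clone 2, 8.60 and 8.42 in clone 5 and 8.38 and 8.59 in clone 6, with 7.93 and 8.50 in MPSVII ES, 7.58 on the B6 Blu ES array, and 9.14 and 9.10 in MEF. All clone and ES arrays lay below both MEF arrays. The gene was called lower in MPSVII ES than in MEF (-0.90 ± 0.28, adjusted p = 0.0337) and on the B6 Blu ES array (-1.54 ± 0.34, adjusted p = 0.00785), but not in the clones (-0.51 ± 0.22, adjusted p = 0.0995). After loess the clones were called lower too (-0.51, adjusted p = 0.0216). Clones and MPSVII ES themselves differed by 0.39 ± 0.22, which did not pass the test (adjusted p = 0.541). The call in MPSVII ES was lost under quantile normalization (-0.37, adjusted p = 0.182), under median centring (-0.69, adjusted p = 0.0556), centred on the proteasome genes (-0.56, adjusted p = 0.121), with all rows of the table (adjusted p = 0.0664), without either MEF array (adjusted p = 0.127 and 0.0955) and without replicate 1 of MPSVII ES (-0.61, adjusted p = 0.253).

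The activators Psme1 and Psme3 encode rings that open the core without ATP, the first interferon-inducible and cytoplasmic, the second nuclear. Psme1 ranged over 6.58 to 8.69 (median 7.98) in the clones, with 7.98 and 8.07 in MPSVII ES, 7.82 on the B6 Blu ES array, and 8.47 and 8.21 in MEF. Psme3 ranged over 6.40 to 7.82 (median 7.31) in the clones, with 7.66 and 7.50 in MPSVII ES, 7.54 on the B6 Blu ES array, and 7.45 and 7.13 in MEF. The clones overlapped MEF for both, with differences of -0.56 ± 0.27 (adjusted p = 0.152) for Psme1 and -0.08 ± 0.18 (adjusted p = 0.796) for Psme3. After quantile normalization Psme3 was called higher in the clones than in MEF (0.56, adjusted p = 0.00348), so its sign and call rest on the scaling. Psme1 was called lower without replicate 1 of clone 2 (-0.69, adjusted p = 0.0357). Psmf1 encodes an inhibitor of the isolated core. Psmf1 ranged over 4.18 to 5.04 (median 4.57) in the clones, with 4.33 and 4.54 in MPSVII ES, 4.66 on the B6 Blu ES array, and 4.90 and 4.97 in MEF. Its row has a mean under 5, and its difference was -0.38 ± 0.21 (adjusted p = 0.208).

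**Figure D3:**
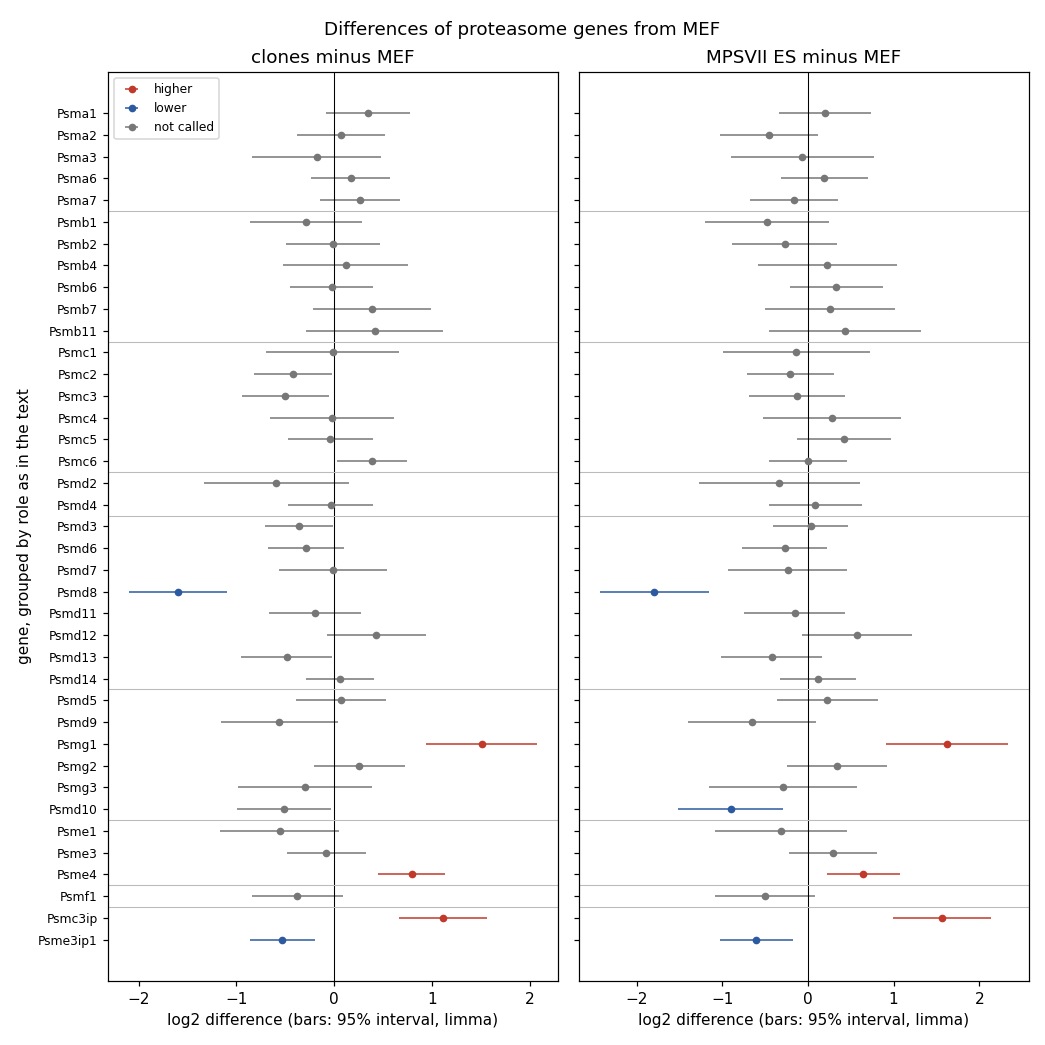
Log2 differences from MEF (points) with 95% intervals of limma (bars) for the 39 genes, grouped by role from the alpha ring at the top to the genes matched by prefix at the bottom, for the clones (left) and MPSVII ES (right). Red and blue mark genes called higher and lower: Psmg1, Psme4, Psmd8, Psmc3ip and Psme3ip1 are coloured in both panels, and Psmd10 in that of MPSVII ES.

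The genes matched only by prefix were both called between clones and MEF. The arrays gave Psmc3ip values of 6.72 and 6.94 in clone 1, 6.18 and 5.78 in clone 2, 6.96 and 6.15 in clone 5 and 6.76 and 6.63 in clone 6, with 6.96 and 6.97 in MPSVII ES, 6.43 on the B6 Blu ES array, and 5.40 and 5.41 in MEF. All other arrays lay above MEF, by 1.11 ± 0.20 in the clones (adjusted p = 0.0013), 1.56 ± 0.26 in MPSVII ES (adjusted p = 0.000966) and 1.02 ± 0.32 on the B6 Blu ES array (adjusted p = 0.0419). Psme3ip1 ranged over 5.46 to 6.37 (median 6.00) in the clones, with 5.81 and 6.04 in MPSVII ES, 5.52 on the B6 Blu ES array, and 6.59 and 6.47 in MEF. Psme3ip1 was lower in the clones by -0.53 ± 0.15 (adjusted p = 0.0174) and in MPSVII ES by -0.60 ± 0.19 (adjusted p = 0.0383). Its call between clones and MEF was lost under median centring (adjusted p = 0.129), under loess (adjusted p = 0.743), without clone 2 (adjusted p = 0.0644), without either MEF array, with line means as samples and centred on the proteasome genes (adjusted p = 0.574), and its sign turned under quantile normalization. The call of Psme3ip1 in MPSVII ES was lost under all 4 other scalings (-0.39 to -0.07, adjusted p from 0.113 to 0.819), without any 1 of the MEF and MPSVII ES arrays (adjusted p from 0.0686 to 0.227), with the compared lines alone (adjusted p = 0.0833) and with all rows of the table (adjusted p = 0.0654). The call of Psmc3ip in the clones was lost with line means as samples (adjusted p = 0.0881).

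MPSVII ES was set against the same MEF arrays. Of the 37 proteasome genes 2 were called higher (Psmg1 and Psme4) and 2 lower (Psmd8 and Psmd10), and of all 39 genes 6 were called (15.4%), where 26.7% of all rows were called, 6.7% higher and 20% lower. The median of the 37 genes was -0.07 beside -0.08 over all rows, and 30 lay within 0.5 of 0. Among the genes not called, Psmd12 of the lid had the largest positive difference, 0.58 ± 0.29 (adjusted p = 0.191), and the chaperone Psmd9 the largest negative one, -0.65 ± 0.34 (adjusted p = 0.205). With 2 arrays on each side, the 95% intervals of the genes not called reached from -1.41 to 1.33. Psmd12 was called higher under all 4 other scalings (0.60 to 1.14, adjusted p from 0.000695 to 0.0281). Psme4 lost its call when replicate 2 of MEF (adjusted p = 0.192) or replicate 1 or 2 of MPSVII ES (adjusted p = 0.133 and 0.105) was left out, when those lines were fitted alone (adjusted p = 0.0942) and with all rows of the table (adjusted p = 0.0543).

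The B6 Blu ES array gave a further view of ES cells, with the spread of the other lines assumed for its 1 array. Against MEF, 0 of the 37 genes were called higher and 2 lower (Psmd8 and Psmd10), where 21.3% of all rows were called, 3.3% higher and 18% lower. The median of the 37 genes was -0.28 beside -0.12 over all rows, and 7 of the 37 differences were above 0. Psmd9 just missed the threshold at -1.28 ± 0.42 (adjusted p = 0.0517). The summed signal of the fibroblast markers on this array lay above that of the other pluripotent lines, as given above. Single markers did not all follow, such as Dcn at 4.85 against 6.31 and 5.79 in MPSVII ES. The part of the fibroblast markers in these values was not tested. MPSVII ES exceeded B6 Blu ES for 30 of the 37 genes and for all 6 of the beta ring, by a median of 0.24 beside 0.02 over all rows, but 0 genes were called (0.204% of all rows were) and 1 had an unadjusted p under 0.05, Psmg2 at 0.78 ± 0.32 (adjusted p = 0.477). The share of all rows higher in MPSVII ES is not given here. The interquartile range was 1.95 on the B6 Blu ES array, against 2.20 and 2.25 in MPSVII ES, and its part was not tested. The median over the 37 genes was 0.12 after quantile normalization and 0.11 after loess. After centring each array on the proteasome genes the median over the 37 was -0.17, beside -0.38 over the rows tested. That centring uses the 37 genes themselves, so it cannot show their direction as a group.

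Between the clones and MPSVII ES, the comparison named in the design text, limma called 0 of the 39 genes, where 1.04% of all rows were called. An unadjusted p under 0.05 was found for 5 genes, namely Psma2 (0.53 ± 0.20), Psma7 (0.42 ± 0.18), Psmc6 (0.39 ± 0.16), Psmc5 (-0.47 ± 0.20) and Psmd3 (-0.39 ± 0.16). Differences of the 37 genes ran from -0.47 to 0.53, with an SD between genes of 0.25 beside 0.34 between all rows. Every 95% interval of the 39 lay within 1 log2 unit of 0, between -0.997 and 0.981. For the catalytic subunits the intervals were -0.78 to 0.07 for Psmb6 and -0.48 to 0.73 for Psmb7, and for Psmd11 -0.51 to 0.43. Signals of Psmc5 were 9.71 and 10.04 in clone 1, 9.75 and 9.15 in clone 2, 10.02 and 9.72 in clone 5 and 9.72 and 10.12 in clone 6, with 10.15 and 10.34 in MPSVII ES, 10.13 on the B6 Blu ES array, and 9.89 and 9.75 in MEF. Where 7.56% of all rows had no overlap between these lines, Psmc5, a base ATPase, lay lower on all clone arrays than on both MPSVII ES arrays. Its difference was not called on the deposited values (adjusted p = 0.364) but was called lower after quantile normalization (-0.56, adjusted p = 0.0411) and loess (-0.57, adjusted p = 0.0407).

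The clones differed among themselves in 2 of the 39 genes by limma's moderated F test, Psmg2 and Psme4, where 9.01% of all rows were called. The range between the highest and lowest clone mean had a median of 0.75 over the 37 genes, beside 0.48 over all rows. Psmg2 stood at 7.34 and 7.92 in clone 1, 5.97 and 5.73 in clone 2, 6.99 and 6.72 in clone 5 and 6.71 and 7.37 in clone 6, with 7.01 and 6.84 in MPSVII ES, 6.15 on the B6 Blu ES array, and 6.54 and 6.64 in MEF. Both arrays of clone 2 lay below those of every other line, and clone 1 had the highest mean. The clone means spanned 1.78 log2 units for Psmg2 (adjusted p = 0.0126 over the 4 clones). Psmg1, the partner of Psmg2, had clone means spanning 0.95 and was not called (adjusted p = 0.253), although clone 1 was again highest and clone 2 lowest.

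For Psme4 the array values given above put clone 5 highest and clone 2 lowest, with a span of 1.05 between clone means (adjusted p = 0.0259 over the 4 clones). Psme3 (span 1.01, adjusted p = 0.0684), Psmd3 (0.87, adjusted p = 0.0711), Psme1 (1.32, adjusted p = 0.0927) and Psmd8 (1.06, adjusted p = 0.0971) came next in order of p. Set singly against MPSVII ES, clone 2 was lower in Psmg2 (-1.07 ± 0.26, adjusted p = 0.0411) and in Psme3 (-0.99 ± 0.23, adjusted p = 0.0345), which is 5.13% of the 39 genes where 5.9% of all rows were called and 5.3% were lower. For clones 1, 5 and 6 limma called 0 of the 39 genes against MPSVII ES (1.08%, 1.78% and 0.048% of all rows were called), with 6, 2 and 1 genes at an unadjusted p under 0.05. The median difference of the 37 genes from MPSVII ES was 0.35 for clone 1, -0.38 for clone 2, 0.04 for clone 5 and -0.03 for clone 6. Without clone 2 the F test called 0 genes, with adjusted p = 0.362 for Psmg2 and 0.295 for Psme4, and without replicate 2 of clone 2 alone it also called 0. Psme4 further lost its call without replicate 1 of clone 2 (adjusted p = 0.0763), replicate 2 of clone 1 (0.065), or either array of clone 5 (0.0809 and 0.0611). The F test of Psme4 was also not passed after quantile normalization (adjusted p = 0.114), loess (adjusted p = 0.178), centring on the proteasome genes (adjusted p = 0.371) or with all rows of the table (adjusted p = 0.0591), where that of Psmg2 was passed (adjusted p from 0.0399 to 0.0478).

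Most proteasome genes shifted the same way between the 2 arrays of a clone. Replicate 2 was higher than replicate 1 for 35 of the 37 genes in clone 1 (median 0.44, beside 0.09 over all rows) and for 36 in clone 6 (0.45 beside 0.09). Among all rows it was higher for 61.1% in clone 1 and 60.3% in clone 6. Replicate 1 was higher for 31 genes in clone 2 (median of replicate 2 minus replicate 1 of -0.43, beside -0.23 over all rows) and for 34 in clone 5 (-0.33 beside -0.14). The direction thus differed between clones, and replicate numbers have no meaning across lines. In MPSVII ES replicate 2 was higher for 29 genes (0.19 beside -0.0004), and in MEF replicate 1 for 31 (-0.13 beside -0.08). Replicate 2 was higher for 49.9% of all rows in MPSVII ES and for 42.4% in MEF. The median residual SD was 0.281 for the 39 genes and 0.252 for all rows. After loess normalization the medians were 0.18 in clone 1, -0.10 in clone 2, -0.10 in clone 5 and 0.25 in clone 6, with replicate 2 higher for 30, 16, 13 and 30 genes. Among all rows it was then higher for 52.1%, 51.3%, 49.5% and 49.8% in that order.

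**Figure D4:**
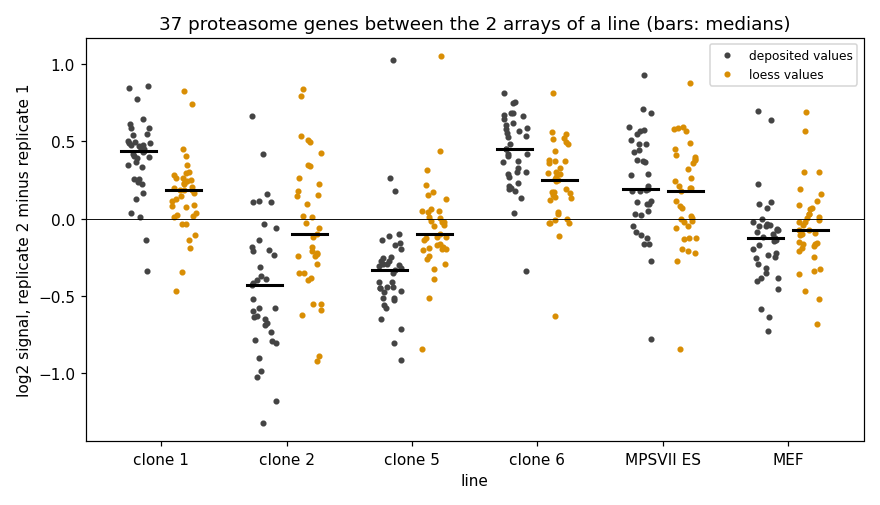
Log2 signal of replicate 2 minus replicate 1 for each of the 37 proteasome genes (points) in the 6 lines with 2 arrays, on deposited values (dark) and loess values (orange), with medians as bars. On deposited values most genes lie above 0 in clones 1 and 6 and below 0 in clones 2 and 5, and the medians lie nearer 0 after loess.

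The direction of the proteasome genes as a group rested on how arrays were scaled. On deposited values the clones had 2 genes higher and 1 lower than MEF among the 37. These counts became 14 and 1 with quantile scaling, 9 and 1 with median centring, 3 and 5 with loess, and 9 and 1 with each array centred on the proteasome genes. The median difference of the 37 genes was -0.03, 0.40, 0.24, -0.02 and 0.36 in that order, while the median of all rows was -0.09, 0.11, 0.17, 0.06 and 0.30. The last scaling sets the median of the 37 genes equal on every array, so it cannot show their direction as a group. A call under it is a difference relative to these same genes. For MPSVII ES minus MEF the same scalings gave 2 higher and 2 lower, 13 and 1, 4 and 1, 5 and 2, and 4 and 1, and for B6 Blu ES minus MEF 0 and 2, 9 and 2, 1 and 2, 2 and 2, and 4 and 1. Between clones and MEF, the rows called in either direction among all rows numbered 5803 on deposited values and 6446 after quantile normalization. They numbered 7085 after median centring, 6642 after loess and 5892 centred on the proteasome genes. For MPSVII ES and B6 Blu ES, calls among all rows are given here on deposited values only. Psmg1 and Psme4 stayed called higher and Psmd8 lower under all 5 scalings in the clones and in MPSVII ES, with differences between clones and MEF of 1.49 to 2.08 for Psmg1, 0.79 to 1.40 for Psme4 and -1.60 to -1.10 for Psmd8. Psmd8 was also called lower on the B6 Blu ES array under all 5. No direction is given here for the core, base or lid as a whole.

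**Figure D5:**
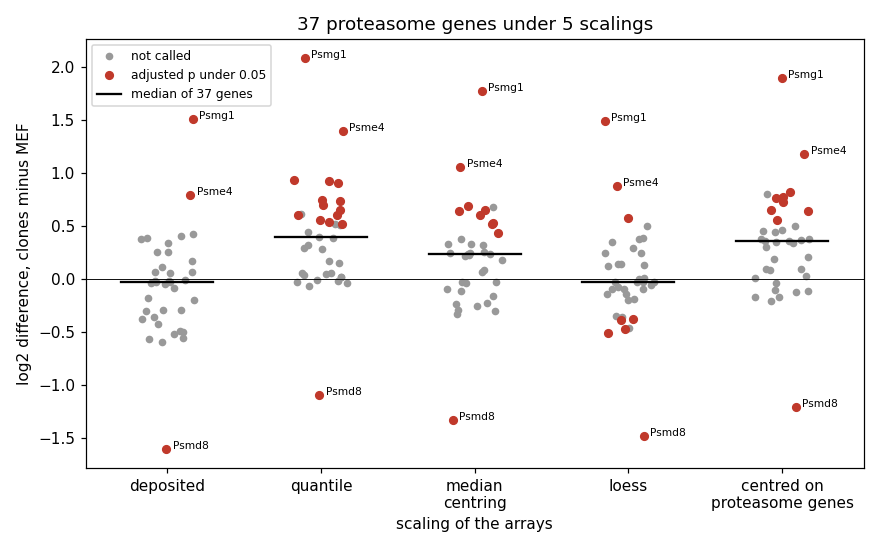
Log2 differences between clones and MEF for the 37 proteasome genes (points) under 5 scalings of the arrays, with medians as bars and genes with an adjusted p under 0.05 in red. Psmg1 and Psme4 stay at the top and Psmd8 at the bottom of every column, while the cloud of the other genes moves with the scaling.

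Genes that act on the proteasome without carrying its name were counted from gene lists. Of 13 cofactors and regulators measured (17 listed), clones minus MEF gave 1 higher and 9 lower, and MPSVII ES minus MEF 0 and 7, where 7.78% of all rows were higher and 27% lower in the clones, and 6.7% and 20% in MPSVII ES. The median difference of these 13 genes from MEF was -0.48 in the clones and -0.72 in MPSVII ES, beside -0.09 and -0.08 over all rows. The largest falls of the list were those of Ngly1, which removes glycans from NFE2L1 and so activates it, and Ecpas, whose yeast counterpart holds core and regulatory particle together. Ngly1 had a log2 signal of 3.75 to 4.67 in the clones, 4.67 and 4.72 in MPSVII ES, 4.38 on the B6 Blu ES array, and 6.70 and 6.67 in MEF (clones minus MEF -2.38 ± 0.16, adjusted p = 9.15e-07). Ecpas had one of 4.36 to 5.63 in the clones, 5.37 and 5.26 in MPSVII ES, 5.04 on the B6 Blu ES array, and 7.20 and 6.76 in MEF (clones minus MEF -2.12 ± 0.18, adjusted p = 4.01e-06). Both lay below MEF on every clone and ES array. Nfe2l1 itself stood at 5.05 to 6.35 in the clones, 6.55 and 6.37 in MPSVII ES, 5.77 on the B6 Blu ES array, and 7.84 and 7.29 in MEF (clones minus MEF -1.78 ± 0.23, adjusted p = 0.000117). Its relative Nfe2l2, the regulator of the oxidative stress response, stood at 5.80 to 7.85 in the clones, 7.70 and 7.95 in MPSVII ES, 6.94 on the B6 Blu ES array, and 8.77 and 8.67 in MEF (clones minus MEF -1.79 ± 0.23, adjusted p = 0.000107). These 4 genes kept their call in the clones under all 5 scalings. All 4 were also called lower in MPSVII ES on deposited values, where Ngly1 and Ecpas kept their call under all 5. Nfe2l1 lost its call there after quantile normalization (adjusted p = 0.0843) and centring on the proteasome genes (adjusted p = 0.107). Nfe2l2 lost its own after quantile normalization (adjusted p = 0.184), median centring (adjusted p = 0.0602) and centring on the proteasome genes (adjusted p = 0.124). Uchl5, a deubiquitinase of the regulatory particle, was the gene called higher (0.66 ± 0.14, adjusted p = 0.00409), while Usp14, another such deubiquitinase, differed by 0.01 ± 0.16, adjusted p = 0.973, and Pomp, the chaperone of core maturation, by 0.10 ± 0.24, adjusted p = 0.8. Sem1, a small lid subunit without the Psm prefix, was called lower (-0.78 ± 0.18, adjusted p = 0.006), but not after quantile normalization (adjusted p = 0.0536) or centring on the proteasome genes (adjusted p = 0.169). In the clones, quantile scaling turned the counts of the list to 3 higher and 4 lower, median centring to 1 and 6, loess to 1 and 8, and centring on the proteasome genes to 1 and 5. For MPSVII ES minus MEF the counts were 2 and 3, 1 and 6, 0 and 8, and 0 and 3 in that order. Calls among all rows under these scalings are given above for the clones.

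Of 8 genes of ubiquitin delivery measured (15 listed), the clones had 0 higher and 2 lower than MEF, Ufd1 (-0.59 ± 0.20, adjusted p = 0.0379) and Ube4b (-1.16 ± 0.23, adjusted p = 0.00235), against 27% of all rows lower, and after quantile normalization 2 were higher and 1 lower. Their median difference was -0.40. The 6 immunoproteasome and antigen processing genes gave 0 higher and 3 lower, namely Psmb8, Psmb9 (-1.37 ± 0.24, adjusted p = 0.000867) and Tap1 (-0.54 ± 0.13, adjusted p = 0.00839), against the same 27%, and after quantile normalization 2 higher and 2 lower. Over the 6 the median difference was -0.33. Psmb8 encodes the inducible counterpart of the catalytic subunit PSMB5 and had a log2 signal of 3.33 to 4.58 in the clones, 3.95 and 3.62 in MPSVII ES, 4.41 on the B6 Blu ES array, and 6.16 and 6.01 in MEF (clones minus MEF -2.18 ± 0.28, adjusted p = 9.3e-05). The summed macrophage markers of MEF stand beside these falls, and of 4 interferon response genes measured (8 listed) 1 was called lower (Gbp2, -1.12 ± 0.17, adjusted p = 0.000298) and 0 higher, a share near that of all rows. Their part in the level of Psmb8 and Psmb9 in MEF was not tested.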

How the data were processed

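Total RNA of the 13 samples was amplified with a NuGen Pico kit, biotin-labelled and hybridised, per the labels' protocols. The deposited table holds log2 signal made with Affymetrix Expression Console and RMA, per the submitters' processing notes, with versions not given in the sources used here. Of 23238 rows, 6577 without a gene in a low range of row numbers were left out as array controls, and 16661 were tested. Symbols came from the platform annotation, and promoter windows of 250 bases from RefSeq on GRCm38.p6, which held 32 of the 39 genes.

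All 13 arrays entered 1 limma fit (version 3.58.1, R 4.3.3, lmFit and eBayes) with a mean for each line, and p-values were Benjamini-Hochberg adjusted over all rows of a comparison. The clones entered as the mean of 4 lines. B6 Blu ES has 1 array, so the spread of the other lines was assumed. Differences among clones were tested with limma's moderated F test. The number of arrays limits the precision. The fit was tested on simulated data. The simulation drew independent noise for each row, without shifts of whole arrays, so it cannot show whether calls hold under such shifts.

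The 39 genes, their roles and the gene lists were chosen with earlier results of these data known, and the names given in full follow a written rule: called genes with the 6 largest changes each way in a comparison, F-test calls, and catalytic, activator and other chosen members. Alternatives were a replicate block, leaving out 12 arrays in turn or clone 2, dropping rows with a mean under 5, quantile, median and loess (span 0.3) scaling, a trended robust prior, array weights, the compared lines alone, line means as samples, other row sets and, chosen after seeing the data, centring on the proteasome genes. This centring is built from the genes under test, so a call under it is relative to their own median. Same-numbered arrays of the 6 replicated lines did not deviate in a common direction. The r of replicate differences ran from -0.24 to 0.24 over 15 line pairs, with 4 above 0.1 and 6 below -0.1. The numbers were therefore not taken as pairs.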

Additional observations from a re-analysis of the deposited data

Results flagged for a closer look

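Psmg2 and Psme4 are listed here because the 4 clones differed in them under limma's F test, with adjusted p = 0.0126 for Psmg2 and adjusted p = 0.0259 for Psme4. The call of Psme4 was lost under quantile normalization, loess, centring on the proteasome genes and with all rows of the table (adjusted p from 0.0591 to 0.371), while Psmg2 kept its call under these. Psmg2, a chaperone of the alpha ring, had 5.97 and 5.73 log2 signal in clone 2, below all 11 other arrays. Psme4, a nuclear activator, had 7.55 and 7.65 in clone 2 and 8.72 and 8.58 in clone 5. Clone 2 also has the narrowest spread of signal over all rows (interquartile ranges of 1.88 and 1.70, against 1.96 to 2.39 on the other clone arrays), and the part of that spread in both differences was not tested. Of 15 genes checked over the 8 clone arrays, 0 had an array beyond Dixon's critical value.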

How the results depend on the processing

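Of 1315 values of single genes under the alternatives, 1204 kept direction and side of the threshold, 38 lost a call, 14 gained one and 59 changed sign, 1 of them with a call (Psme3 after quantile normalization, above). These values cover 15 named genes. Some alternatives could not move a difference, such as leaving out a clone array for MPSVII ES minus MEF. The 1204 is therefore no measure of stability. The causes of changes were not tested. Counts below are over the 39 genes. For clones minus MEF, genes higher numbered 3 as reported, 15 after quantile normalization, 10 after median centring, 10 centred on the proteasome genes and 1 with line means as samples, and genes lower numbered 2 as reported, 1 after quantile normalization, median centring or centring on the proteasome genes, 5 after loess and 0 with line means. Calls among all rows numbered 5803 as reported and 3060 with line means, and those under the other scalings are given above. Leaving out 1 array gave 3 to 4 higher and 1 to 6 lower, the 6 without replicate 1 of clone 2 and the 1 without either MEF array. For MPSVII ES minus MEF, genes higher numbered 3 as reported, 14 after quantile normalization, 5 after median centring, 6 after loess and 5 centred on the proteasome genes, and genes lower 3 as reported and 1 after quantile normalization, median centring, centring on the proteasome genes or with all rows of the table. Leaving out 1 array gave 2 to 3 higher and 1 to 3 lower, with 1 without either MEF array or replicate 1 of MPSVII ES. For B6 Blu ES minus MEF, genes higher numbered 1 as reported, 10 after quantile normalization, 2 after median centring, 3 after loess and 5 centred on the proteasome genes, with 1 lower under the last against 3. For clones minus MPSVII ES, 1 gene (Psmc5) was lower after quantile normalization and loess. The F test among clones called 2 genes as reported, 5 without rows of mean under 5, 5 after median centring, 1 after loess, with all rows or centred on the proteasome genes, 0 without clone 2, and 0 to 3 without 1 array. The rows it called in all numbered 1501 as reported, 1961 without rows of mean under 5, 1933 after median centring and 1070 after loess. They numbered 927 with all rows of the table, 637 centred on the proteasome genes and 134 without clone 2.

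Sign changes in clones minus MEF, without a call except for Psme3 after quantile normalization, were Psmb6 at 0.29 after quantile normalization, 0.24 after median centring and 0.36 centred on the proteasome genes, Psmd11 at 0.45, 0.070 and 0.19 under these and 0.015 after loess, Psme3 at 0.56, 0.18 and 0.31, 0.14 after loess and 0.12 without clone 2, Psme1 at 0.059 and Psme3ip1 at 0.15 after quantile normalization, Psmd14 at -0.053 after loess and Psmf1 at 0.013 centred on the proteasome genes. In MPSVII ES minus MEF, Psmd11 was 0.46, 0.057, 0.19 and, after loess, 0.024, and Psme1 was 0.32 after quantile normalization and 0.030 centred on the proteasome genes. In clones minus MPSVII ES, Psmb11 was 0.035, 0.029 and 0.020, Psmd11 was 0.013 after median centring, 0.0035 centred on the proteasome genes and 0.13 without clone 2, Psmd14 was 0.044 without clone 2, and Psmg2 was 0.017 after quantile normalization, 0.020 after loess and 0.25 without clone 2. In MPSVII ES minus B6 Blu ES, centring on the proteasome genes gave Psmd11 -0.28, Psmd14 -0.29, Psme1 -0.20, Psme3 -0.37 and Psme4 -0.015, quantile normalization gave Psmd11 -0.088 and Psme3 -0.19, and loess gave Psmd11 -0.11 and Psme3 -0.20. Leaving out 1 array moved values across 0 for Psmb6 (-0.099 to 0.046) and Psme3 (-0.24 to 0.079) in clones minus MEF, Psmb7 (-0.085 to 0.60) and Psmd11 (-0.55 to 0.23) in MPSVII ES minus MEF, Psmb11 (-0.31 to 0.26), Psmb7 (-0.22 to 0.47), Psmd11 (-0.43 to 0.35) and Psmg2 (-0.16 to 0.0043) in clones minus MPSVII ES, and Psmd11 (-0.27 to 0.51) and Psme3 (-0.042 to 0.12) in MPSVII ES minus B6 Blu ES.

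With the replicate block, the counts for clones minus MEF stayed at 3 higher and 2 lower, and the 1 call it changed was Psme3ip1 in MPSVII ES minus MEF (-0.60, adjusted p = 0.0537). Averaging a gene's rows gave no further value, since 0 of the 39 genes have more than 1 row. Depth in the sense of read counts does not apply to arrays. The 6 genes with a mean under 5 lie in the range where signal is hard to tell from background, and no detection calls were used here.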
